A study of Mus musculus with 2 samples.

Results

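The genes described here are imprinted genes of the mouse that lie outside the Cdkn1c domain, 45 names in 19 clusters. Their list was chosen with earlier results of these data known. Nesp is a transcript of Gnas, so the names stand for 44 genes, of the 33797 gene symbols in the annotation used. An LHX6 interval belonged to a gene when the authors' deposited table named that gene, under its current or an older name, in the interval's gene list. By that rule 26 of the 6566 LHX6 intervals belonged to the imprinted genes, and 19 of the 44 genes had at least 1. LHX6 is a LIM homeodomain transcription factor of the jaw mesenchyme, and its sites on chromatin were mapped by ChIP-seq, which precipitates a protein with its DNA and sequences that DNA. Maxillary arches, which form the upper jaw, came from 47 mouse embryos of the CD-1 stock, wild type and at E11.5, and were pooled, and 20 µg of chromatin was precipitated with a rabbit polyclonal antibody against LHX6. The data comprised 1 LHX6 ChIP library and 1 library of input chromatin from the same stage, tissue and strain. No group had a replicate, so no test was possible and no value has a replicate error.

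Imprinted genes are expressed from the copy inherited from 1 parent. They lie in clusters, and each cluster is governed by a control region whose CpG methylation is set in the egg or the sperm and then stays different between the parental copies. Such germline differentially methylated regions (germline DMRs) are often CpG islands at the start of a gene or of a noncoding RNA. In mouse the zinc finger protein ZFP57 is known to bind the letters TGCCGC on the methylated copy and to keep it methylated. Many imprinted genes control growth of the embryo and placenta. The deposited table does not separate the parental copies, so binding to the maternal or the paternal copy cannot be told apart.

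All heights below are the authors' signal, the highest density of 150 bp fragments within an interval. Over all LHX6 intervals the median height was 22, with an interquartile range of 18 to 28 and a length of 857 bp at the median. The input library had 6 intervals, and 0 of the 26 intervals at imprinted genes overlapped one (exact 95% upper bound 13.2%). With so few input intervals hardly any LHX6 interval could overlap one, so this count says little about the 26. The share over all LHX6 intervals was not counted. Shares are given with exact Clopper-Pearson 95% intervals, which cover counting error only and not the choice of the genes. The depth of both libraries is unknown here. Coordinates are those of mouse build mm9 (NCBIM37), as deposited.

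The first group of sequences is shown because the results on repeated motifs below turn on these intervals. Windows lie outside annotated untranslated exons, and the Mest interval is not shown because 4 of its 9 matches lie in such exons. All are read from the plus strand of mm9, and capitals mark the motif on either strand. In the Usp29 window, chr7:6883196-6883395, capitals mark TGATTG, a hexamer that LIM homeodomain factors of the LHX6 kind can bind, which reads CAATCA from the other strand. In the windows upstream of Rasgrf1 (chr9:89774428-89774627), between Dlk1 and Meg3 (chr12:110766455-110766654), inside Inpp5f (chr7:135831320-135831519) and at Plagl1 (chr10:12810864-12811063), they mark TGCCGC, or GCGGCA from the other strand. In the Peg3 and Usp29 window, chr7:6680970-6681169, they mark GCCATNTT, a core that the zinc finger protein YY1 is known to bind. This window comes from the interval that covers both starts. It lies inside the Peg3 gene body, from -1995 to -1796 bases relative to the summit, and not at the start itself.
Usp29 repeat: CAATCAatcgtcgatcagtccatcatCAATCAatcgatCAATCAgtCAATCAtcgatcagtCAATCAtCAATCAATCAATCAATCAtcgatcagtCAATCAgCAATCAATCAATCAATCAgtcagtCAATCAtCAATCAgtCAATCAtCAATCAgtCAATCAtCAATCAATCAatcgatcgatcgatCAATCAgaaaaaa
Rasgrf1 upstream: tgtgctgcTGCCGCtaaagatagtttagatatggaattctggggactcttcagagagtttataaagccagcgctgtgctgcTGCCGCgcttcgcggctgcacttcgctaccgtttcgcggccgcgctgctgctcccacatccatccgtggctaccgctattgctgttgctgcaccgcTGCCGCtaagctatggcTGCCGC
Dlk1 to Meg3: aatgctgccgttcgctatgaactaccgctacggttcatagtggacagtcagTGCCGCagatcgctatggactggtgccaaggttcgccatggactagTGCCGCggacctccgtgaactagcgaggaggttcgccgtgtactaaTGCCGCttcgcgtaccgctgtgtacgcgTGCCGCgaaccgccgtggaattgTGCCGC
Inpp5f internal: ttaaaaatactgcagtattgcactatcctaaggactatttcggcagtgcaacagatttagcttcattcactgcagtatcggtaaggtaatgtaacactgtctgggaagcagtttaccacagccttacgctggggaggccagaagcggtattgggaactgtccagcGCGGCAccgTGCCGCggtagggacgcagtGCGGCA
Plagl1 start: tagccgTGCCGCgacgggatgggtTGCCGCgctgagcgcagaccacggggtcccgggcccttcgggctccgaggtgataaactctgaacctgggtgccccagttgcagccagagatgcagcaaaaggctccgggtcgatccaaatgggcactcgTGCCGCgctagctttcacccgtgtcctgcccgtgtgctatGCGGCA
Peg3 and Usp29 start: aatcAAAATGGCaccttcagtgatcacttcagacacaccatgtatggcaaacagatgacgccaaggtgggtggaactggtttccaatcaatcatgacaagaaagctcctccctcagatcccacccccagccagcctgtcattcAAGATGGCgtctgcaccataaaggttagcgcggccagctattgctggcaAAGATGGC

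The second group shows 7 further imprinted-gene intervals with an LHX hexamer, meaning TGATTG or TGATTA or else TAATTA, within 100 bp of the summit. Each is given with 20 bases to either side, on the plus strand of mm9, and capitals mark the hexamer. The windows lie at chr12:110776829-110776874 (Meg3), chr12:110834815-110834860 (Rtl1), chr17:12943097-12943142 (Airn, inside Igf2r), chr2:174121006-174121051 (Gnas, at Nespas), chr2:174169865-174169910 (Gnas, distal), chr6:4944264-4944309 (Ppp1r9a, proximal) and chr6:5031157-5031202 (Ppp1r9a, distal).
Meg3: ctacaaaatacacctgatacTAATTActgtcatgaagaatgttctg
Rtl1: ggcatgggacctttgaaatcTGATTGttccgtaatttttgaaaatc
Airn: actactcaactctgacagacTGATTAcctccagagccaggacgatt
Gnas at Nespas: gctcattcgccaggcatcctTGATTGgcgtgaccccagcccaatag
Gnas distal: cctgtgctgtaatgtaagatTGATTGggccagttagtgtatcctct
Ppp1r9a proximal: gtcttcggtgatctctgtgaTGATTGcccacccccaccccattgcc
Ppp1r9a distal: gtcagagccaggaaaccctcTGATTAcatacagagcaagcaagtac

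LHX6 intervals were found at 43.2% of the imprinted genes (19 of 44, 95% interval 28.3 to 59.0%). Among all gene symbols of the annotation 14.0% had an interval, and among protein-coding symbols 20.7%. The protein-coding imprinted genes stood at 43.6% (17 of 39, 27.8 to 60.4%). Among protein-coding genes whose start is CpG-rich, 31.9% had an interval, and the 17 imprinted genes of that kind stood at 47.1% (8 genes, 23.0 to 72.2%), an interval that includes the share of all such genes. Members of 1 cluster can share an interval, and 6 of the 26 intervals were named for 2 of these genes, so the genes are not independent. By cluster, 10 of the 19 had an interval (52.6%, 28.9 to 75.6%). That share has no background of like clusters and cannot be set against the shares of single genes. With intervals at or above the median height alone, 9 of the 44 genes had one (20.5%), against 2540 of 22176 protein-coding symbols.

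The expressed copy of each gene was taken from a list that was not checked here and that counts Ddc as maternally expressed. By that list, paternally expressed genes had an interval in 11 of 23 cases (47.8%, 26.8 to 69.4%). Maternally expressed genes had one in 8 of 21 (38.1%, 18.1 to 61.6%), and these intervals overlap widely. An interval within 1 kb of the gene's own start was present at 7 of the 23 paternally expressed genes, 30.4% (13.2 to 52.9%), and at 2 of the 21 maternally expressed ones, 9.52% (1.17 to 30.4%). Over all 44 genes the share with an interval at the own start was 20.5% (9 genes, 9.8 to 35.3%), against 11.0% of protein-coding symbols. Of the 17 whose GENCODE start is CpG-rich, 6 had an interval within 1 kb of their deposited start, 35.3% (14.2 to 61.7%). Among all protein-coding genes with a CpG-rich GENCODE start that share was 19.6%. The GENCODE and deposited starts of a gene can differ.

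The 16 genes listed as having a germline DMR at or next to a start had an interval in 11 cases (68.8%, 41.3 to 89.0%), and in 10 of them the interval lay on a CpG island (62.5%, 35.4 to 84.8%). The other 28 genes had an interval in 8 cases (28.6%, 13.2 to 48.7%) and one on a CpG island in 4 (14.3%, 4.03 to 32.7%). Among protein-coding symbols 15.6% had an interval on a CpG island, and among those with a CpG-rich start 25.8%. With intervals at or above the median height alone, the germline DMR count on an island fell from 10 to 4 of 16. The count for the 9643 protein-coding symbols with a CpG-rich start fell from 2490 to 1288. Peg3 and Usp29 share 1 of these intervals and Peg10 and Sgce share 2, so the 10 genes do not stand for 10 separate regions. The plot of shares shows these counts beside the shares of all protein-coding genes.

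**Figure D1:**
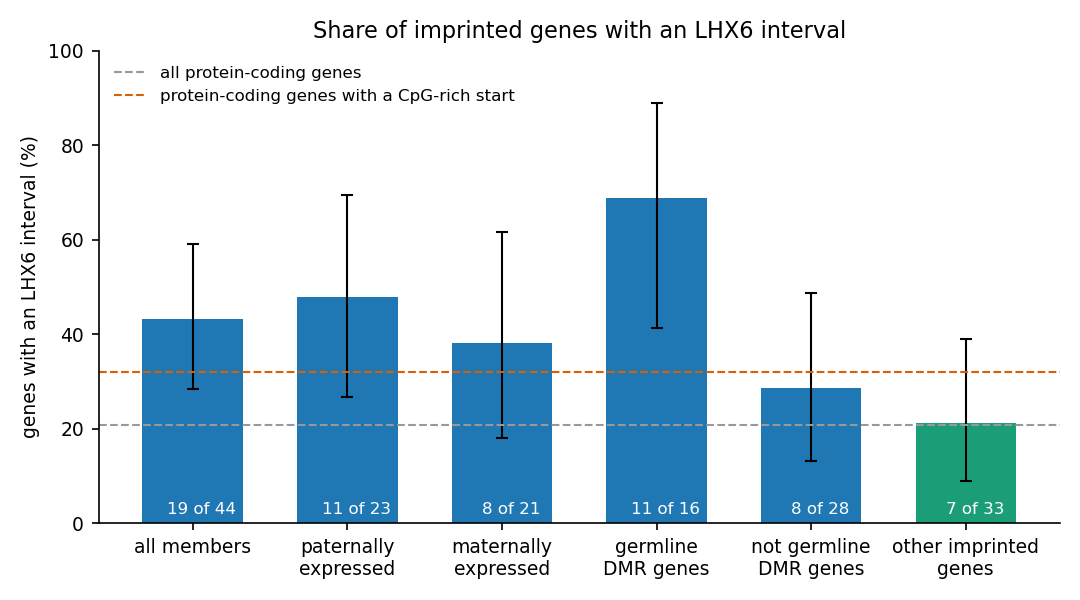
Share of genes with an LHX6 interval (%, bars) with exact 95% intervals (lines). Bars stand for all 44 imprinted genes, then by expressed allele as listed, with Ddc counted as maternal. Further bars stand for germline DMR genes, the rest, and 33 further imprinted genes. Dashed lines give the shares of all protein-coding genes (20.7%) and of those with a CpG-rich start (31.9%). The germline DMR genes have the tallest bar, 68.8% (41.3 to 89.0%), and some of them share an interval. The line of the 33 further imprinted genes, which include Nap1l5 with its own germline DMR, ends at 38.9%. The lists were chosen with earlier results known, so overlaps or gaps between the lines are no test.

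Most of the intervals themselves lay below the median height of the library. The 26 intervals at imprinted genes had a median height of 20 and ran from 15 to 44, and 9 of them (34.6%, 17.2 to 55.7%) reached the median of all LHX6 intervals, which 53.0% of all intervals reached. Their median length was 906 bp. At a gene start lay 11 of the 26 intervals (42.3%, 23.4 to 63.1%), against 35.9% of all LHX6 intervals, and 12 lay on a CpG island (46.2%, 26.6 to 66.6%), against 41.6%. Of the 11 at a start, 10 were on an island, against 92.5% of all intervals at starts, and of the 15 distal intervals 2 were (13.3%, 1.66 to 40.5%), against 13.1% of all distal intervals. In position and islands these intervals thus lay near the background of the library. In height they lay somewhat below it, with medians of 19 against 21 at starts and 20 against 23 for distal intervals.

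**Figure D2:**
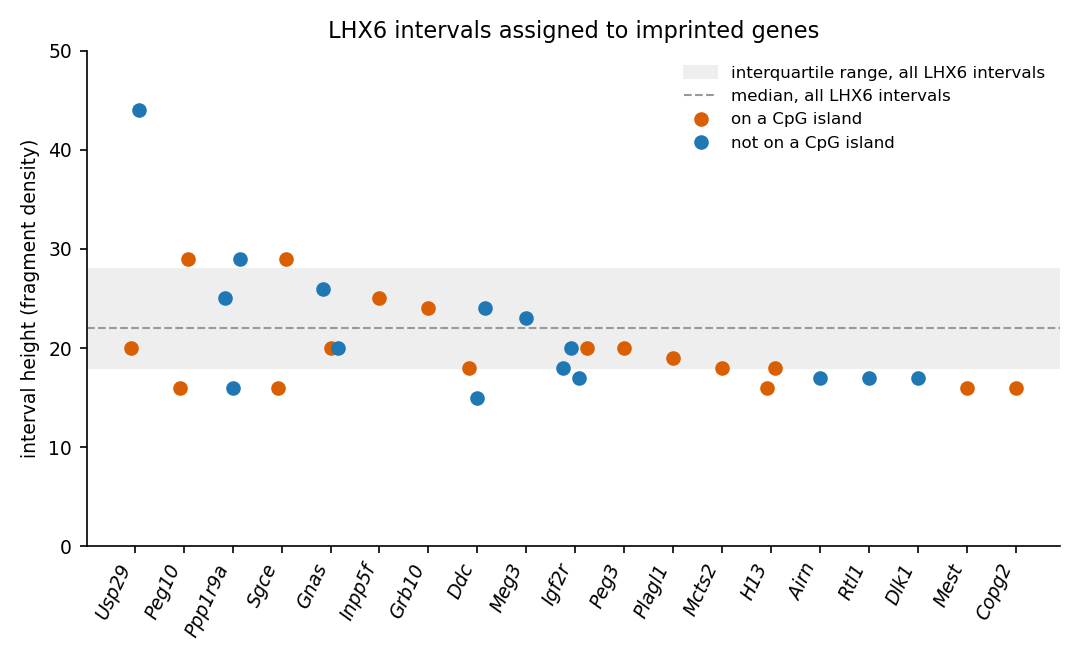
Height (fragment density) of each LHX6 interval assigned to an imprinted gene, with the genes in order of their highest interval; an interval named for 2 genes appears at both. Orange points lie on a CpG island, the band is the interquartile range of all LHX6 intervals (18 to 28) and the dashed line their median of 22; the Usp29 interval of height 44 stands above the rest, which end at 29.

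Among growth signalling genes, 4 of 9 had an interval (44.4%, 13.7 to 78.8%, against 20.7% of protein-coding symbols): Igf2r, Grb10, Dlk1 and Gnas. Igf2r encodes the receptor that removes the growth factor IGF2 from the cell surface, and it had 4 intervals. The interval at its start (chr17:12962108-12963041) lay 76 bp after the deposited start on a CpG island with a height of 20. A second one had a height of 20 and an intronic position 59.1 kb after the start (chr17:12903011-12903694). Airn, the paternally expressed antisense RNA that silences Igf2r, had 1 interval, which was also named for Igf2r (chr17:12942873-12943277, height 17). It lay in introns of both genes, 1.94 kb after the deposited start of Airn and 8.93 kb after its GENCODE start, and on no CpG island. A taller interval of height 38, assigned to Mas1 alone, lay inside the GENCODE body of Airn, 103 kb from its start, with 2 TGATTG and 1 TGATTA at its summit. Slc22a3, an organic cation transporter gene of the same cluster, had no interval.

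Grb10 encodes an adaptor that restrains insulin and growth factor signalling. Its single interval (chr11:11925311-11926566, height 24) lay on a CpG island 11.2 kb into the gene and 183 bp from the start of the GENCODE transcript Grb10-001, in an untranslated exon. GC content was 63.2%, the observed to expected CpG ratio was 1.12, and TGCCGC occurred 4 times. Ddc, its neighbour, which encodes the dopamine-forming enzyme DOPA decarboxylase, had 3 intervals of heights 24, 18 and 15. The interval of 24 lay in an intron of Ddc, while the other two lay past its end and were also named for Fignl1, 1 of them 121 bp from the Fignl1 start on a CpG island.

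Gnas encodes the stimulatory G protein alpha subunit and shares its exons with upstream transcripts such as Nesp. The first of its 3 intervals (chr2:174120398-174121924, height 26) lay 87 bp before the start of the antisense RNA Nespas, 11.2 kb after the Nesp start from which the table counts. The deposited table put no CpG island there, while the interval had 54.9% GC and held 5 TGCCGC, and a TGATTG lay 2 bp from its summit. The second (chr2:174154116-174155201, height 20) lay on a CpG island 44.9 kb along, in an untranslated exon of Gnas. The third (chr2:174169357-174170168, height 20) lay in an intron 59971 bp along, with a TGATTG 93 bp from its summit.

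The Dlk1 to Dio3 cluster held the tallest interval within 50 kb of any of these genes, and the table assigned it to no gene. Dlk1 encodes a membrane protein of the Notch ligand family, Meg3 is a maternally expressed noncoding RNA, and the cluster is controlled by a DMR in the intergenic stretch between them. The unassigned interval (chr12:110766134-110766899) lay in that stretch, on a CpG island, 12.6 kb before the GENCODE start of Meg3. Its height was 94 and its mean density 30.9, and 36 of the 6566 LHX6 intervals were taller. The intervals named for Dlk1, Meg3 and Rtl1 had heights of 17, 23 and 17. Whether the tall interval coincides with the control region was not tested, since no coordinates of that region were used.

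The interval of Dlk1 lay 3.08 kb before its start (chr12:110687863-110688693), and that of Meg3, listed under the older name Gtl2, 4.83 kb before its deposited start (chr12:110776599-110777182). The Meg3 interval alone among the 26 held TAATTA near its summit, 10 bp away. Rtl1, a retrotransposon-derived gene needed in placental vessels, had an interval 1.2 kb before its start (chr12:110834435-110835314), in an intron of Rtl1 by GENCODE and with a TGATTG 19 bp from the summit. The same interval was also listed for 6 microRNA genes and 6430411K18Rik. Rian, a noncoding RNA, and Dio3, the enzyme that inactivates thyroid hormone, had none.

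**Figure D3:**
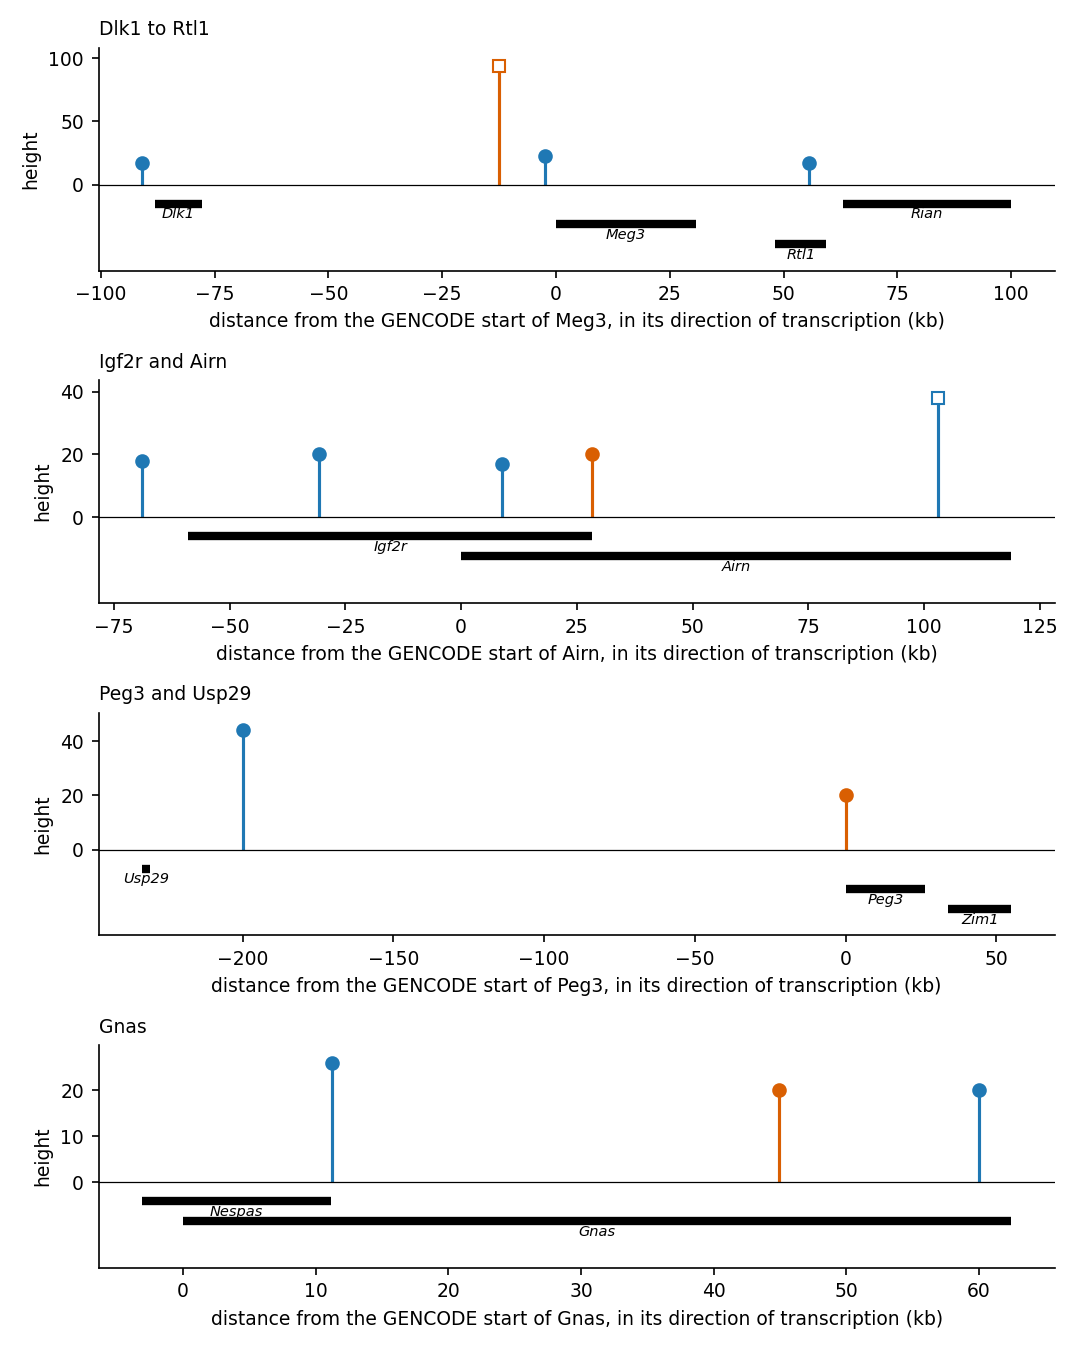
Height of every LHX6 interval (vertical lines, fragment density) in 4 imprinted clusters against distance in kb from the GENCODE start of Meg3, Airn, Peg3 and Gnas, with black bars for genes. Filled circles are intervals assigned to an imprinted gene described here and open squares all others, and orange means on a CpG island; the open squares of height 94 before Meg3 and 38 within Airn stand above the assigned intervals of their clusters.

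The zinc finger genes Peg3 and Plagl1 were the 2 of 9 transcription and RNA genes with an interval (22.2%, 2.81 to 60.0%), near the 20.7% of protein-coding symbols. Peg3, a DNA-binding zinc finger protein, and Usp29, a gene of the ubiquitin protease family, are transcribed in opposite directions from 1 shared CpG island region. A 3039 bp interval covered both starts (chr7:6680739-6683778, height 20), with its summit 165 bp after the Peg3 start and 487 bp before the Usp29 start. It was the longest of the 26 and spanned 2 CpG islands. Plagl1 encodes a zinc finger factor that regulates growth, and its interval (chr10:12810089-12811327, height 19) had a summit 283 bp before its start. Zim1 and Klf14, also zinc finger genes, had none.

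Usp29 had a second interval, the tallest assigned to an imprinted gene (chr7:6882826-6883645, height 44, mean density 16.8), and 399 LHX6 intervals were taller. The table placed it within the gene, 199844 bp after its start, and GENCODE placed it outside genes, 30.6 kb from its shorter Usp29 model. It lay on no CpG island and its GC content was 40.8%. TGATTG occurred 24 times in it, all on the minus strand, in a run of 223 bases around the summit, and 22 of the matches lay within 100 bp of the summit. That was the highest number of any LHX6 interval, and the next had 23. Neighbouring matches were 4 to 26 bases apart, with 8 of the 23 spacings at 4 bases, where matches overlap, and no TGATTG lay in the 2 kb to either side of the interval. Intervals with 10 or more TGATTG numbered 10 in all and ran in height from 20 to 48, with a median of 27.5. The median was 20 for the 3176 intervals with none, 23 for those with 1, 25 for those with 2 and 28 for those with 3 to 9. These groups pool intervals of unlike length, and intervals at gene starts (median height 21) with distal ones (median 23). A relation between matches and height was not tested.

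**Figure D4:**
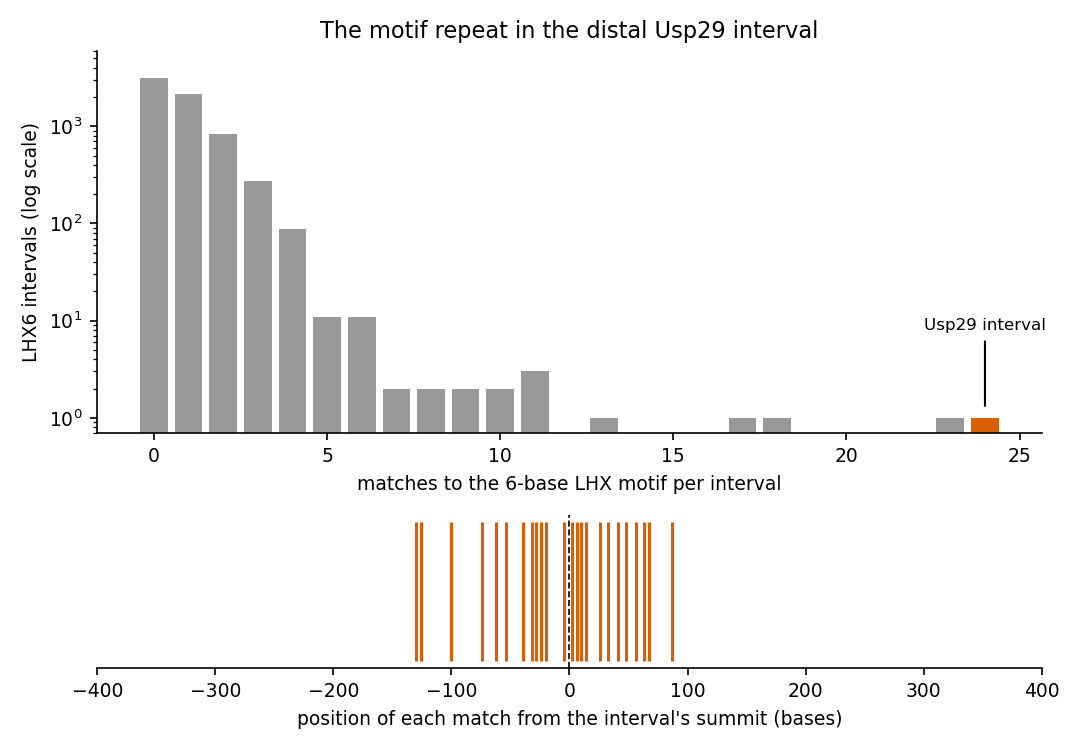
Upper panel, number of LHX6 intervals (log scale) by the number of TGATTG matches each holds, with the Usp29 interval at 24 in orange. Lower panel, position of each of the 24 matches in bases from the summit (dashed line); they lie between -130 and 87 and crowd around the summit.

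Peg10 is a retrotransposon-derived gene needed for the placenta, and Sgce, which encodes epsilon-sarcoglycan, starts beside it in the opposite direction. Both were covered by 2 intervals on CpG islands. The interval on the Peg10 side (chr6:4697612-4698578) had a height of 29 and lay 550 bp after the Peg10 start, and the one on the Sgce side (chr6:4696528-4697303) had a height of 16 and lay 267 bp after the Sgce start. Ppp1r9a, which encodes the actin-binding scaffold neurabin, had 3 intronic intervals, 56.5, 91.0 and 178 kb after its start, with heights of 25, 16 and 29 and no CpG island. The calcitonin receptor gene Calcr and Asb4 of this cluster had none.

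Among transport and enzyme genes 5 of 10 had an interval (95% interval 18.7 to 81.3%), against 20.7% of protein-coding symbols. Mest encodes a hydrolase-like protein of mesoderm, and its interval (chr6:30687786-30688966, height 16) had a summit 33 bp after the start on a CpG island. The table named the same interval for Copg2, a coatomer subunit gene whose end lies nearby. Inpp5f, a phosphoinositide phosphatase gene, had an interval on a CpG island inside the gene (chr7:135831210-135832211, height 25). It lay 76.6 kb after the gene's main start and 460 bp from the start of the internal GENCODE transcript Inpp5f-005. It counted as at a gene start through LOC100043651, whose start lay 456 bp away. H13, which encodes a signal peptide peptidase, had an interval at its start (chr2:152494778-152496176, height 16). A second one (chr2:152512296-152513360, height 18) lay in an intron of H13 and 196 bp before the start of Mcts2, a retrogene inside that intron with a germline DMR. Each of these intervals was on a CpG island.

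The letters TGCCGC were common in these intervals. They occurred in 10 of the 11 imprinted-gene intervals at the start of any named gene (90.9%, 58.7 to 99.8%), against 56.8% of all LHX6 intervals at starts. Not all of these 11 starts are starts of the imprinted genes themselves. Of the 15 distal intervals 4 held them (26.7%, 7.79 to 55.1%), against 17.2% of all distal intervals. The median density was 2.63 per kb for these 11 intervals and 0.731 per kb for all LHX6 intervals at starts. The Mest interval held 9, more than any other of the 6566, with 4 of the 9 in untranslated exons, and the Peg3 and Usp29 interval held 8, tied for the second place. Plagl1 and Inpp5f held 6 each, Gnas at Nespas 5, Grb10 4 and Mcts2 3.

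Per kb of interval, a measure chosen after the counts had been seen, Mest ranked 2 of all LHX6 intervals with 7.63, Inpp5f ranked 12 with 5.99 and Plagl1 ranked 21 with 4.85. The interval between Dlk1 and Meg3 held 5 TGCCGC, all on the plus strand from -118 to 25 bases relative to the summit, or 6.54 per kb, which ranked 6. Rank 1 was an interval near Rasgrf1, a guanine nucleotide exchange factor gene whose control region lies in a repeat-bearing stretch upstream of it. That interval (chr9:89774345-89774908, height 18) was assigned to no gene and lay 30021 bp before the Rasgrf1 start, with 6 TGCCGC, all on the plus strand, in 563 bp, or 10.7 per kb. Its height of 18 equals the lower quartile of all LHX6 intervals. Neither of these unassigned intervals held an LHX hexamer.

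**Figure D5:**
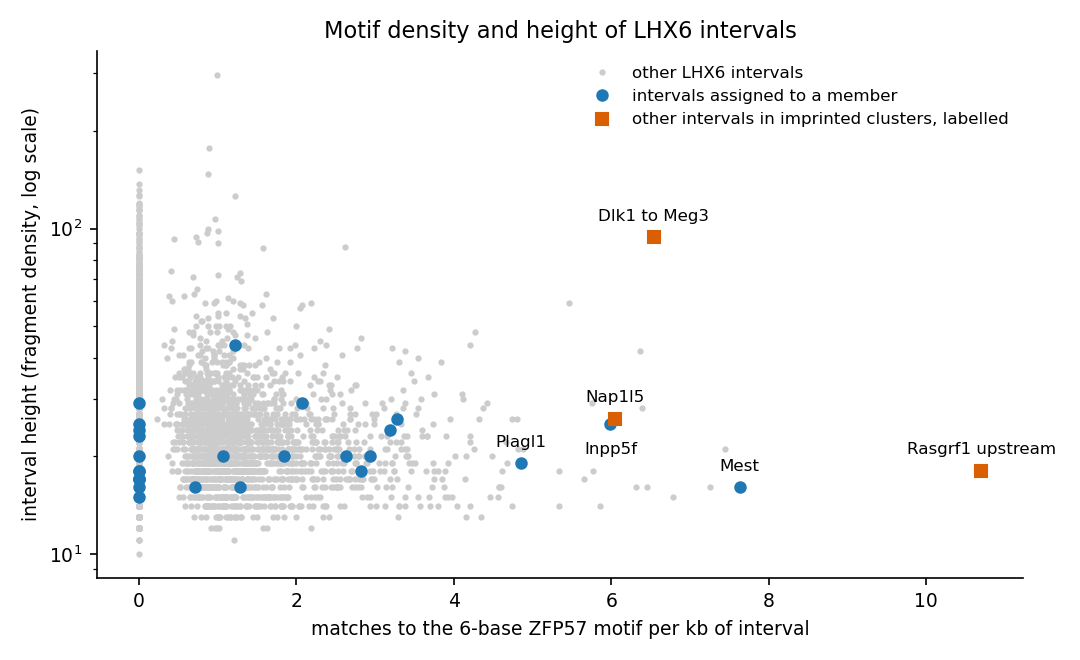
Height (fragment density, log scale) of each LHX6 interval against its number of TGCCGC matches per kb. Grey points are all other intervals, blue points those assigned to an imprinted gene, and orange squares 3 labelled intervals in imprinted clusters outside the assigned set; the interval upstream of Rasgrf1 lies farthest right at 10.7 per kb and that between Dlk1 and Meg3 is high on both axes at 6.54 per kb and 94.

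GCCATNTT, searched after the Peg3 interval had been looked at, occurred in 3 of the 26 intervals (95% interval 2.45 to 30.2%), against 17.5% of all LHX6 intervals. The Peg3 and Usp29 interval held 7 of them, all on the minus strand, and no other LHX6 interval held more than 4. They lay on the side of the Peg3 gene body, from -1991 to -665 bases relative to the summit, and none lay within 100 bp of it. The same interval held 6 TGATTG, also none within 100 bp of the summit.

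An LHX hexamer occurred within 100 bp of the summit in 9 of the 26 intervals (34.6%, 17.2 to 55.7%). Of the distal intervals 8 of 15 had one (53.3%, 26.6 to 78.7%), against 62.9% of all distal LHX6 intervals, and of those at starts 1 of 11 (9.09%, 0.23 to 41.3%), that of Gnas at Nespas, against 27.3% of all at starts. Of the 8 distal ones, the Usp29 repeat is shown among the first sequences and 6 are in the second group. None of the intervals at the starts of Igf2r, Peg3, Mest, Peg10, Sgce, Plagl1, Mcts2 and H13 held an LHX hexamer within 100 bp of the summit.

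No interval was assigned to 25 of the 44 genes. These included the growth factor gene Igf2, Ins2 and the noncoding RNA H19, whose nearest interval lay 42.0 kb away at Mrpl23 with a height of 16. The Snrpn to Ube3a cluster, with the splicing factor gene Snrpn, the MAGE family genes Ndn and Magel2, the ring finger gene Mkrn3 and the ubiquitin ligase gene Ube3a, had its nearest summit 1520 to 3060 kb from each gene. Nnat, a membrane proteolipid gene inside its neighbour Blcap, had no assigned interval, but 2 unassigned ones lay 22.8 and 46.1 kb before its start. The farther one (chr2:157339296-157340173) had a height of 77, which 68 LHX6 intervals exceeded, and 4 TGATTG within 100 bp of the summit. The nearest interval to Impact, a translation regulator gene, lay 39.1 kb away and was named for Hrh4, with a height of 55. The nearest summit to Zrsr1, a splicing factor retrogene, lay 280 kb away, and that to its host gene Commd1 274 kb away. The remaining genes with none were Dcn, Trappc9, Peg13, Gatm, Rasgrf1 and those named above with their clusters.

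A further 33 genes reported as imprinted in mouse, outside the 44 and outside the Cdkn1c and Kcnq1 domain, had an interval in 7 cases (21.2%, 8.98 to 38.9%), close to the 20.7% of protein-coding symbols. Nap1l5, a retrogene within an intron of Herc3 with its own germline DMR, had an interval of height 26 whose summit lay 61 bp before its start, and the table named the same interval for Herc3. It held 5 TGCCGC in 826 bp, or 6.05 per kb, which ranked 11. Chrac1 had an interval of height 30, Bcl2l1 of 21 and Gpr1 of 17, and Ago2, listed as Eif2c2, had 2 of heights 23 and 20. Nespas was named for the interval of height 26 described with Gnas.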

How the data were processed

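Per the labels' protocols, BWA placed the reads of the LHX6 ChIP and input libraries on mm9, each read was lengthened to a fragment of 150 bp, and fragment density along the genome was kept. Per the submitters' processing notes, MACS was also used. Versions, the calling threshold, read totals and any scaling between libraries are not given in the sources used. The deposited table gives for each interval a signal, the highest fragment density, its mean over bins, and the authors' gene list, distances and CpG islands.

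Samples were grouped by the antibody label. The members and lists were chosen with earlier results of these data known. Older names were matched through RefSeq symbols (GRCm38.p6, names alone), and 43 of the 44 genes were found in GENCODE M1. Sequence was read from NCBIM37. An interval was at a gene start if its deposited distance to any gene named for it was 1000 bp or less. CpG-rich starts, taken at the GENCODE gene start, had at least 55% GC and an observed to expected CpG ratio of at least 0.65 in 200 bp. Motifs were counted on both strands and in overlap over whole intervals, or within 100 bp of the summit. With 1 library per group, counts were set beside all genes or intervals and no test was run. Every member with an interval was named, and 1 interval counted among the 26 is not reported here. Intervals outside the gene lists were named after their values were seen. Alternatives changed the assignment of intervals to genes, the height minimum, the CpG rule and the motif window. Counting was tested on simulated sequences. Python 3 with pysam, scipy and pandas was used. 0 columns of other samples were present.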

Additional observations from a re-analysis of the deposited data

How the results depend on the processing

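The share of imprinted genes with an interval depended on the height minimum, as did that of protein-coding symbols. With intervals at or above the median height alone, 9 of the 44 genes had an interval (20.5%, against 2540 of 22176 protein-coding symbols), and 4 germline DMR genes had one on a CpG island. With a summit in the GENCODE gene or within 10 kb the number stayed at 19 (43.2%, against 22.2% of protein-coding symbols), and within 50 kb it was 28 (63.6%, against 38.8%). Searching whole intervals raised the share with an LHX hexamer to 61.5%, against 72.8% of all LHX6 intervals, since more bases were searched. Searching 100 bp to each side of the summit lowered the share with TGCCGC to 26.9%, against 10.4% of all. The other alternatives, for symbols alone, the 45 names (chosen after seeing the data), the input intervals, the CpG rule, the start distance, 250 bp to each side for LHX hexamers, the mean density, the height minimum for CpG islands and for further imprinted genes, stayed near the count, within the 95% interval of the share, or on the same side of the ratio of heights. No paired analysis was possible because each group had 1 library, and no library could be left out. The unknown depth and calling threshold limit what a missing interval shows: genes with none may lie under the threshold.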
